A study of Mus musculus with 6 samples.

Results

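Sarcoplasmic reticulum calcium cycling genes were measured in the heart of 3 sham mice and 3 mice after 28 days of tail-suspension. The set holds 10 genes: the calcium pump Atp2a2, its inhibitors Pln and Sln, the release channel Ryr2, the lumenal and junctional proteins Casq2, Trdn, Hrc and Srl, the membrane tether Jph2 and the sodium-calcium exchanger Slc8a1. Their probes were taken by the gene name in the array's own annotation, which gave 14 probes of 55681 that were not controls and 10 of 28909 gene names. In tail-suspension a mouse hangs by its tail so that its hindlimbs bear no load, which serves as a model of weightlessness. All mice were male C57BL/6 and the tissue was cardiac muscle. The sham mice were not suspended. According to the labels, suspension began at an age of 10 weeks, although a separate age entry reads 11 weeks for every animal, and 28 days after that start the mice would have been older.

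In each heartbeat a cardiomyocyte releases calcium from the sarcoplasmic reticulum, the internal calcium store, and pumps it back. Calcium that enters through the L-type channel opens Ryr2 at junctions where the store lies against the cell membrane. The pump Atp2a2 returns most of the calcium to the store, with Pln holding the pump back until it is phosphorylated, and Slc8a1 carries the remainder out of the cell. In the store, Casq2 binds calcium, and Trdn ties Casq2 to the channel.

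What the arrays read of these genes is a stretch of 60 bases per probe. The following 3 probe sequences, printed whole, are shown because they belong to the genes read by more than 1 probe. They are written 5′ to 3′ in lower case, with no part marked.
Atp2a2 A_52_P168097: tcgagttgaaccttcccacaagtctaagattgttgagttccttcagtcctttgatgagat
Slc8a1 A_55_P2080758: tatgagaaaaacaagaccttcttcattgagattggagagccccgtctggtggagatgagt
Trdn A_55_P2401646: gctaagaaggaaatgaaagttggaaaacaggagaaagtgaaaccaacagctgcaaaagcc
Of the other probes that carry the results, the first 30 bases identify each.
Atp2a2 A_51_P451075: gttccacactgtattattgtaacttattta
Trdn A_51_P249608: tctgtcgatatatgattgacatgtttgtcc
Casq2 A_51_P174696: actcagacccaagcctttggatgtcaatta
Jph2 A_51_P218653: tcggacctaaaaccttgctcacatccactc
Hrc A_55_P1994229: gccctgacctggccgcctggcaagagctgc
Srl A_55_P2126391: ggaagacaccttaccagtagtatcctcctt
Ryr2 A_52_P440709: taaatgaacaaagaaagccctcagaaacaa
In the mm9 coordinates of the files, the Atp2a2 probes lay at chr5:122903704-122903763 and chr5:122910660-122910719 on the minus strand, 6956 bases apart. The 3 Trdn probes lay on the plus strand at chr10:32915796-32915855, chr10:32919981-32920040 and chr10:33194264-33194323. The Jph2 probe lay at chr2:163163526-163163585 on the minus strand and the Ryr2 probe at chr13:11645812-11645871 on the minus strand. The Casq2 probe covered chr3:101949827-101949884 on the plus strand, the Hrc probe chr7:52594281-52594340 on the plus strand and the Srl probe chr16:4480455-4480514 on the minus strand. Their place in exons or untranslated regions was not analysed here, as no annotation of that build was used.

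Levels are given as the log2 of the processed intensity of a probe relative to the 75th percentile of its array, so that 0 is the intensity of that percentile. Tests covered the probes whose signal stood well above background throughout at least 1 of the groups, and the brightest such probe stood for its gene. The 6 arrays shared 1 slide and 1 scan, and between 50.9% and 53.4% of probes were well above background. The 75th percentile was 302 to 322 in sham and 341 to 376 in tail-suspension, so a gene with the same intensity in both groups lies lower in tail-suspension after scaling. Row 1 of that slide held all 3 sham arrays and tail-suspension replicate 1, and row 2 held tail-suspension replicates 2 and 3. The ventricular markers were well above background as the cardiac label would have it, and all 8 (such as Myl2, Tnnt2 and Tnni3) were tested. In whole tissue, fewer cells of a type and less RNA per cell cannot be told apart.

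No member rose after tail-suspension and 5 of the 9 tested members fell: Jph2, Casq2, Srl, Trdn and Hrc (limma, adjusted p under 0.05). Over all 17140 genes tested, 10.5% fell and 10.6% rose at the same threshold, against 55.6% and 0% of the tested members. The members were chosen with earlier results of these data known, so these shares are a description and no test of the set. Without adjustment (limma p under 0.05), 7 members fell and 0 rose. Shares over all genes were not computed for this or for any other unadjusted count given below. The median change of the 9 members was -0.40 on the log2 scale, beside -0.01 over all genes. The change was below 0 in 7 of the 9, and the groups did not overlap in 7 of the 9, beside 46.4% of all genes whose groups did not overlap. The genes of the pump, Atp2a2 by its brighter probe and Pln, had lower values in all 3 tail-suspended hearts but did not pass the test. Ryr2 and Slc8a1 had overlapping groups. Sln could not be tested.

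**Figure D1:**
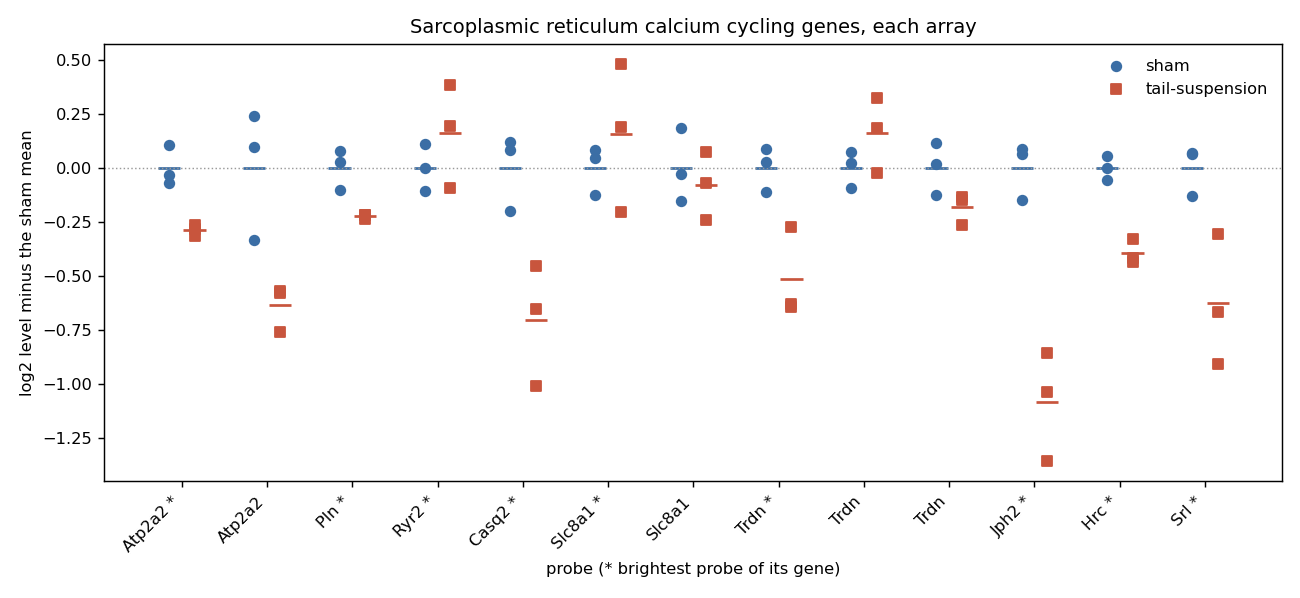
Level of each probe of 9 genes on each array as log2 relative to the mean of the 3 sham arrays (y axis), with 1 column per probe (x axis); circles are sham, squares tail-suspension, and short lines are group means. All 3 tail-suspension values of Jph2 lie below every sham value, whereas those of Ryr2 spread on both sides of the sham mean.

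Jph2 encodes junctophilin 2, which holds the store membrane against the cell membrane where Ryr2 sits. It had the largest fall of the members. Its levels were 0.80, 0.82 and 0.58 in sham and -0.13, -0.30 and -0.63 in tail-suspension. The groups did not overlap, and tail-suspension replicate 3 was lowest. The mean was 0.73 ± 0.13 in sham and -0.35 ± 0.25 in tail-suspension (SD, n = 3 each). The change was -1.09 on the log2 scale (SE 0.15, limma adjusted p = 0.00713), which left 47.1% of the sham level. The intensity before scaling was 560, 565 and 452 in sham and 312, 305 and 243 in tail-suspension, and was also separated. Among the 17140 genes, 1.73% fell further than Jph2.

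Casq2, cardiac calsequestrin, is the main calcium-binding protein of the store lumen. The Casq2 levels were 6.54, 6.57 and 6.25 in sham and 6.00, 5.44 and 5.80 in tail-suspension. Every tail-suspended heart lay below every sham heart, and replicate 2 was lowest. The change was -0.71 (SE 0.17, limma adjusted p = 0.0316), or 61.3% of the sham level. Hrc, a histidine-rich protein of the lumen that binds calcium and also Trdn, gave 8.83, 8.77 and 8.71 in sham and 8.33, 8.44 and 8.35 in tail-suspension. The Hrc values within each group were close together, with an SD of 0.06 in sham and in tail-suspension. The change of Hrc was -0.40 (SE 0.08, limma adjusted p = 0.0236), or 76.0% of the sham level. Before scaling, the intensities of Hrc overlapped between groups, with 126660 in sham replicate 3 and 130760 in tail-suspension replicate 2.

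Srl encodes sarcalumenin, a glycoprotein of the lumen of the sarcoplasmic reticulum that binds calcium. Its levels were 6.49, 6.49 and 6.29 in sham and 6.12, 5.52 and 5.75 in tail-suspension. Tail-suspension replicate 1 came closest to the sham hearts, and before scaling its intensity of 23666 reached that of sham replicate 3, 23630. The change was -0.63 (SE 0.16, limma adjusted p = 0.0403), or 64.7% of the sham level.

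Trdn, triadin, spans the junctional membrane and gives rise to several isoforms, and its 3 probes differed. The brightest probe, A_51_P249608, gave 5.45, 5.39 and 5.25 in sham and 4.73, 5.09 and 4.72 in tail-suspension. Its groups did not overlap, and the change was -0.52 (SE 0.13, limma adjusted p = 0.0360), or 69.8% of the sham level. Its intensities before scaling overlapped, with 11509 in sham replicate 3 and 12819 in tail-suspension replicate 2. The mean of the 3 probes changed by -0.18 and did not pass (limma adjusted p = 0.197). The probe A_55_P2401646, 4185 bases upstream, gave 3.89, 3.80 and 3.65 in sham and 3.51, 3.64 and 3.63 in tail-suspension. The groups nearly met without overlapping, and the change of -0.18 did not pass the test (limma adjusted p = 0.216). The probe A_55_P1966778, which lies 274283 bases downstream of the brightest, gave -3.27, -3.22 and -3.39 in sham and -2.97, -3.11 and -3.32 in tail-suspension. Its groups overlapped, and the change was 0.16 (limma adjusted p = 0.349). The probe was dim, with intensities of 28.8 to 34.3 in sham and 37.6 to 43.6 in tail-suspension. Its change was -0.12 with normexp background correction. The difference between probes on the same array did not depend on the scaling. The log2 difference between the brightest probe and A_55_P2401646 was 1.56, 1.60 and 1.60 in sham and 1.22, 1.45 and 1.09 in tail-suspension, without overlap. All 3 pairs of Trdn probes were separated in this way, each at the smallest p that 3 against 3 allows (exact permutation test, two-sided, p = 0.1, 0.14 after Benjamini-Hochberg adjustment over 14 such comparisons). The pairs share probes, among them the dim A_55_P1966778, and so are not independent.

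Atp2a2 encodes SERCA2, the pump that refills the store. The levels of its brighter probe, A_51_P451075, were 8.42, 8.28 and 8.24 in sham and 8.05, 7.996 and 8.03 in tail-suspension. The groups did not overlap, and the change was -0.29 (SE 0.09, 95% interval -0.50 to -0.08), with a limma adjusted p of 0.0599. The other Atp2a2 probe, A_52_P168097, gave 5.77, 5.63 and 5.20 in sham and 4.96, 4.96 and 4.77 in tail-suspension. It passed the test with a change of -0.64 (SE 0.16, limma adjusted p = 0.0369). That call held in 10 of 20 other ways of processing and was lost when any array but sham replicate 3 was left out (adjusted p 0.0574 to 0.121). The unscaled intensities of this probe overlapped, with 11102 in sham replicate 3 and 11738 in tail-suspension replicate 2. Sham replicate 3 was the lowest sham heart for both probes. The difference between the probes overlapped between groups (exact permutation test, two-sided, p = 0.2). Before scaling, the intensity of the brighter probe was 110360, 99362 and 91297 in sham and 90301, 96071 and 98198 in tail-suspension, so that the separation rests on the scaling.

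Pln encodes phospholamban, the inhibitor that phosphorylation releases from the pump. The Pln levels were 7.53, 7.58 and 7.40 in sham and 7.29, 7.29 and 7.27 in tail-suspension. The 3 tail-suspended hearts were nearly equal and lay below all sham hearts, yet the change of -0.23 (SE 0.09) had a limma adjusted p of 0.107. Its intensities before scaling overlapped. The balance of pump and inhibitor, taken as the log2 difference of the Atp2a2 and Pln probes on each array, was 0.89, 0.70 and 0.84 in sham and 0.76, 0.71 and 0.76 in tail-suspension. These groups overlapped (difference -0.06, exact permutation test, two-sided, p = 0.4).

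Sln, sarcolipin, inhibits the pump mainly in atria and in skeletal muscle. Its processed intensity was 11.5, 3.08 and 82.3 in sham and 43.1, 3.91 and 7.00 in tail-suspension. The probe was well above background only in sham replicate 3 and tail-suspension replicate 1, so no fold change is given. Of the atrial markers, 6 of 8 were tested, and Myl7 and Bmp10 were not well above background throughout either group. Tbx5 rose by 0.56 on the log2 scale (limma adjusted p = 0.0238). Nppa had a value of 1.45 (limma adjusted p = 0.0886) and Myl4 one of -0.63 (limma adjusted p = 0.217), both without a call. The 6 tested markers had a median of 0.40, with 4 changes above 0 and 2 below. Their summed level was 108 to 210 times the 75th percentile in sham and 187 to 648 times in tail-suspension, most of it from Nppa, which ventricles can express as well. The part of atrial tissue in the Sln values was not tested.

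Ryr2, the release channel, did not pass the test. Its levels were 5.52, 5.41 and 5.31 in sham and 5.61, 5.32 and 5.80 in tail-suspension. The groups overlapped, and the change was 0.16 with a 95% interval from -0.17 to 0.49 (limma adjusted p = 0.438). Slc8a1, the exchanger that extrudes calcium across the cell membrane, gave 0.53, 0.74 and 0.70 in sham and 1.14, 0.45 and 0.84 in tail-suspension with its brighter probe. The tail-suspended hearts held both the highest and the lowest value, and the interval of the change ran from -0.27 to 0.58 (limma adjusted p = 0.558). The other Slc8a1 probe, A_55_P2292435, changed by -0.08 with an interval from -0.39 to 0.23. A further probe, A_52_P313285, carries a transcript name in place of the gene name and so is no member, but its description names the Slc8a1 gene. It lies at chr17:81844210-81844269 and gave a change of 0.04 (SE 0.13, limma adjusted p = 0.831).

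**Figure D2:**
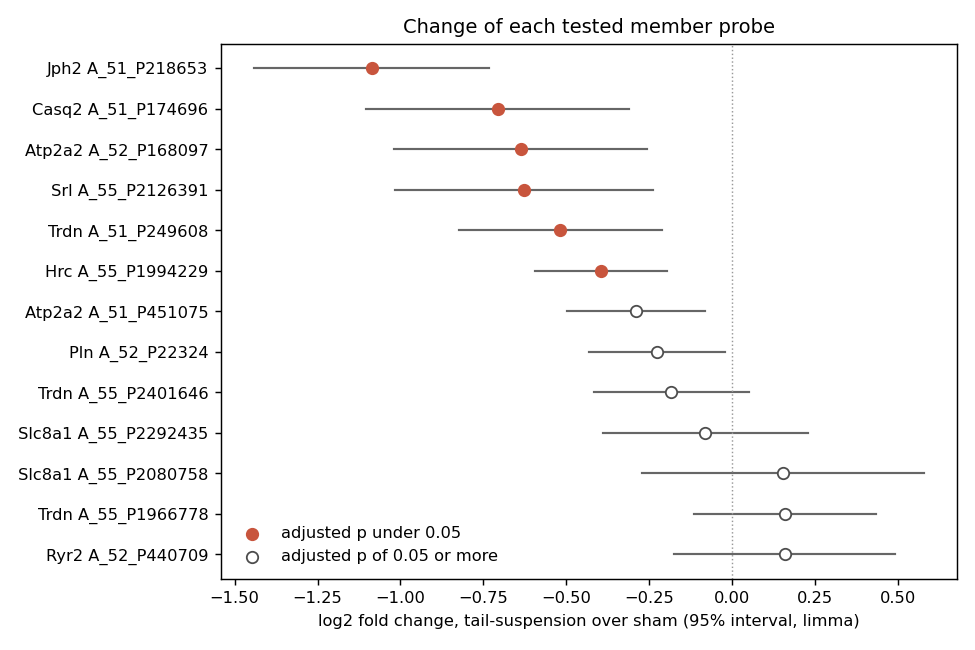
Log2 fold change of tail-suspension over sham (x axis) for each of 13 tested probes (y axis), with 95% intervals from limma; filled points passed the adjusted threshold of 0.05. The 6 filled points, from Jph2 at -1.09 to Hrc at -0.40, all lie below 0, and the intervals of Ryr2 and of both Slc8a1 probes include 0.

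Ratios to Ryr2 were added after its values were seen, because the ratio of a pair of probes on the same array does not move with the scaling. Relative to Ryr2, 7 of 8 members were lower in every tail-suspended heart than in any sham heart. The share of all genes separated from Ryr2 in this way was not computed. By their own levels, 46.4% of all genes had groups that did not overlap, in either direction. The change in the log2 ratio was -1.25 for Jph2, -0.87 for Casq2, -0.79 for Srl, -0.68 for Trdn, -0.56 for Hrc, -0.45 for Atp2a2 and -0.38 for Pln. None of these passes a threshold, as 3 against 3 allows no p below 0.1 (exact permutation test, two-sided, p = 0.1 each, adjusted 0.14). For Slc8a1 the ratio to Ryr2 changed by -0.01 and overlapped (exact permutation test, p = 1). Ryr2 had the most positive change of the members, so the choice of it as denominator favours separation, and all ratios share its values. Which gene of a pair moved cannot be read from them.

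**Figure D3:**
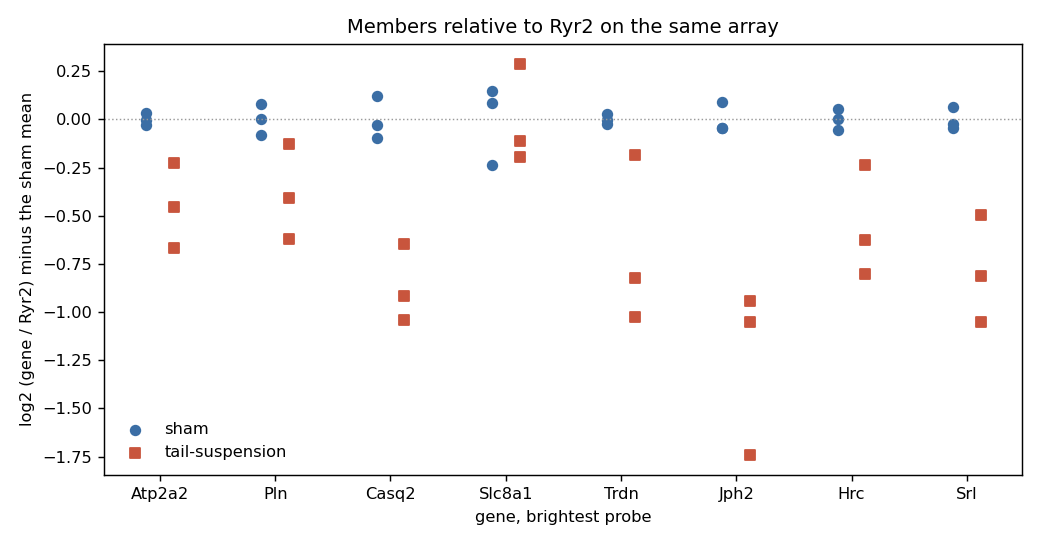
Log2 ratio of each of 8 members to Ryr2 on the same array, relative to the sham mean (y axis), by gene (x axis); circles are sham and squares tail-suspension. Only Slc8a1 has overlapping groups, and the lowest square is Jph2 in tail-suspension replicate 3.

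Markers of other cells moved between the groups as well, and their part in the members' changes was not tested. At the adjusted threshold, 10.5% of all genes tested fell and 10.6% rose. Of the 8 ventricular cardiomyocyte markers, 8 had a change below 0, 2 fell (Actc1 by 0.33 and Irx4 by 0.44 on the log2 scale) and the median was -0.13. Their summed level was 4684 to 4832 times the 75th percentile in sham and 4258 to 4301 times in tail-suspension. Of 5 endothelial markers 3 fell, and their summed level was 39.5 to 42.4 in sham and 29.2 to 32.5 in tail-suspension. Of 5 neutrophil markers 4 rose, with summed levels of 143 to 171 in sham and 207 to 235 in tail-suspension, mostly from Csf3r, which did not pass. S100a8 rose by 4.80 and S100a9 by 4.62 on the log2 scale, and Retnlg and Ltf, which were not well above background in any sham heart, rose at least 12.3-fold and 6.26-fold. Of the 12 skeletal muscle markers 7 were tested, only Casq1 of them fell, and Myh1, Myh2, Myh4, Mylpf and Actn3 were not well above background throughout either group. Of the 7, 3 had a change above 0 and 4 below 0, with a median of -0.06. Their summed level was 40.2 to 88.6 in sham and 27.4 to 39.1 in tail-suspension, mostly from Acta1 and Atp2a1, which did not pass. The 4 erythroid markers had a median change of -1.52, and none passed the test, although 3 of 4 were lower at an unadjusted limma p under 0.05. No smooth muscle or fibroblast marker passed it. At an unadjusted limma p under 0.05, 3 of 5 fibroblast markers were lower and 1 was higher, with a median change of -0.63. By the same measure 1 of 4 smooth muscle markers was higher. Of 4 tested macrophage markers Cd163 rose, but it was not well above background in any sham heart, so no fold change is given. When each array was set relative to the mean level of the ventricular markers, an alternative chosen after seeing the data, Jph2 changed by -0.91 (limma adjusted p = 0.0078) and Casq2 by -0.53 (adjusted p = 0.0439). Srl, Trdn and Hrc then had values of -0.45, -0.34 and -0.22 and did not pass.

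Partners of these proteins were read from 4 lists of 63 genes in all, of which 60 were tested. Of these, 3 rose (5%) and 11 fell (18.3%), with a median of -0.08, beside 10.6% and 10.5% of all genes tested. Among 20 tested partners of release and of the junction, 5 fell (25%) and 3 rose (15%), and the median was -0.19. The largest fall was that of Casq1, the calsequestrin of skeletal muscle, at -1.83 (SE 0.40, limma adjusted p = 0.0263). Its levels were -1.74, -1.22 and -1.05 in sham and -2.71, -2.69 and -4.09 in tail-suspension, so the fall had the same direction as that of Casq2. The probe of Casq1 was dim in tail-suspension, with a mean level of -3.16, and replicate 3 was lowest. Asph, whose locus also encodes junctin, a partner of Trdn, fell by 1.01 on the log2 scale (limma adjusted p = 0.00877), although its 4 probes ranged from -1.23 to 0.16. Camk2g, a subunit of a calcium-activated kinase, fell by 0.74 on the log2 scale. Itpr1, an inositol trisphosphate receptor, also fell. Jph1, a junctophilin mainly of skeletal muscle, rose by 0.62, against the fall of Jph2, and Itpr3 and Tmem38b, a potassium channel of the store membrane, rose by 0.50 and 0.52. The probe of Jph1 was dim, with a mean level of -3.19 in sham and -2.57 in tail-suspension. That of Tmem38b was dim too, at -2.57 and -2.05. The difference of Jph1 and Jph2 was not tested.

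The 12 tested partners of uptake, such as phosphatase and protein kinase A subunits and the lumenal chaperones Calr and Canx, had no call (limma; 2 rose and 2 fell at an unadjusted p under 0.05) and a median of 0.02. The largest value among them was that of Atp2a1, the pump of fast skeletal muscle, at -0.52 (limma adjusted p = 0.0672). Of 18 tested genes of calcium and sodium handling at the cell membrane, 4 fell (22.2%, beside 10.5% of all genes), none rose and the median was -0.14. All 4 encode calcium channel subunits, while Cacna1c, the main cardiac L-type pore, had a value of 0.08 (limma adjusted p = 0.651) and Cacna1h, a T-type pore, one of -0.16 (adjusted p = 0.380), without a call. Cacnb2, the beta subunit of L-type channels, fell by 0.70 and Cacna1g, a T-type channel, by 0.58 on the log2 scale. Each had 2 tested probes, and the other probe had a value of -0.22 for Cacnb2 and -1.22 for Cacna1g. Cacna1d, a further L-type pore, was not well above background in any tail-suspended heart and fell at least 1.29-fold, a bound set by the dimmest signal well above background on those arrays (limma adjusted p = 0.0325). Cacna2d1 passed the test as well. Of 10 mitochondrial genes 2 fell (20%), Letm1 by 0.68 and Vdac1 by 0.31 on the log2 scale, and none rose. Several of these were read under an older name, such as Ccdc109a for Mcu, the uniporter pore.

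**Figure D4:**
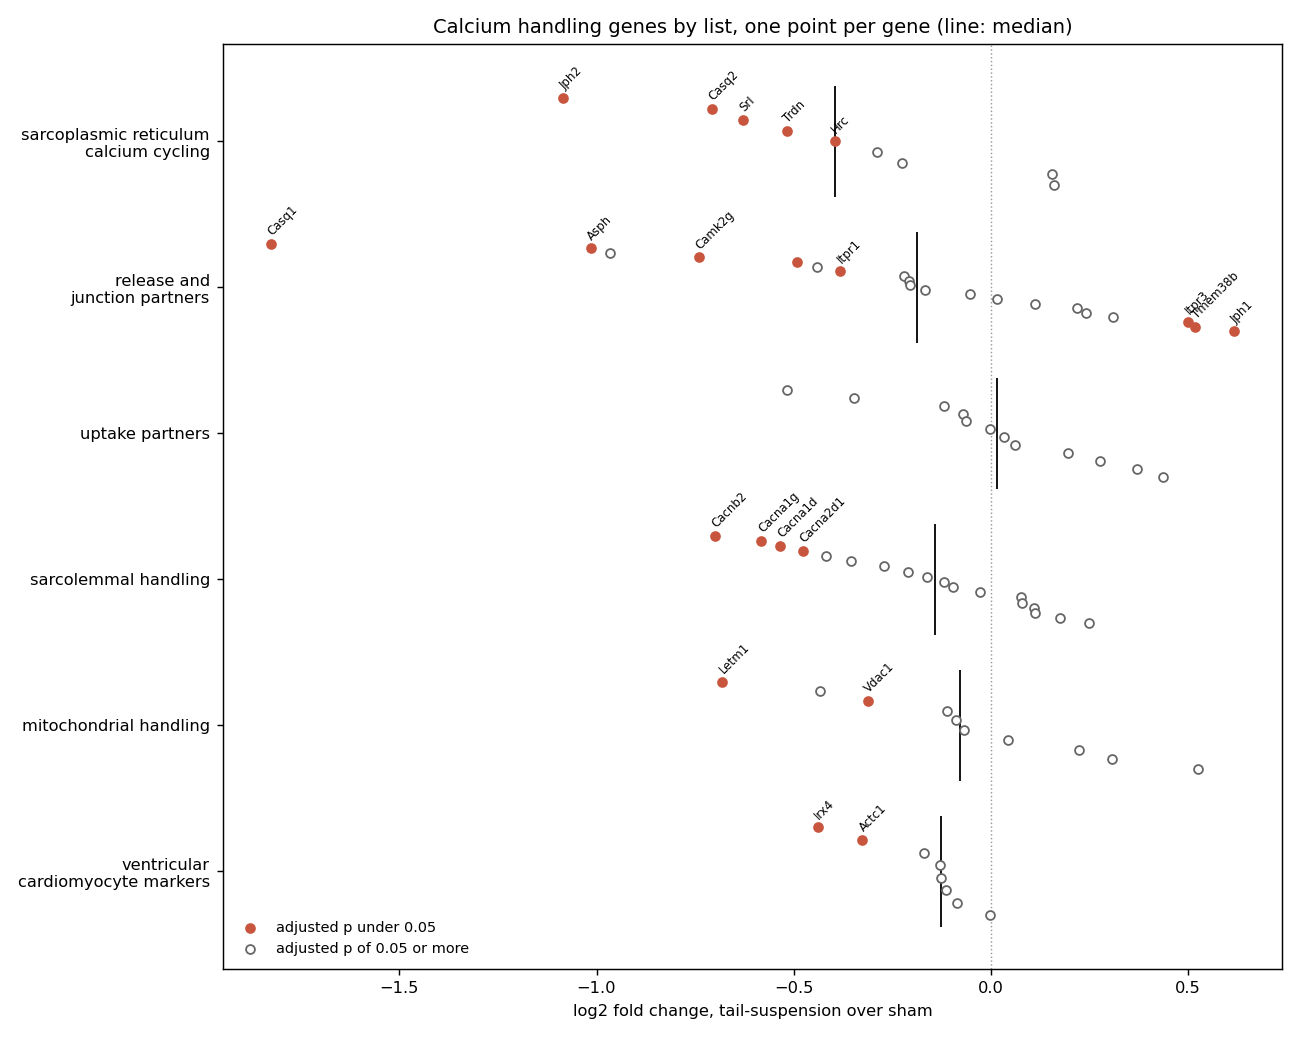
Log2 fold change of tail-suspension over sham (x axis) for each tested gene of the members, the 4 partner lists and the ventricular markers (rows); filled points passed the adjusted threshold of 0.05, with their names where given, and vertical lines are medians. The point of Cacna1d is the measured difference, of which only a bound is known. The members have the lowest median of the 6 rows, -0.40, and Casq1 at -1.83 is the point farthest to the left.

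The genes most like Atp2a2, Pln and Ryr2 across the 6 arrays are a description, as the group difference shapes every such correlation. For Atp2a2 they were Mgat3, H3f3a and Ddx19b (Pearson r 0.995 to 0.997), for Pln Tomm70a, BC057022 and Myadml2 (r 0.998 to 0.999) and for Ryr2 Skint7, Pdgfra and Dhrs7b (r 0.994 to 0.996). No other member was among them.

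Promoters of 6 of the 10 genes were in the RefSeq table of GRCm38.p6. The 250 bases before the start of Jph2 and Casq2, which fell, and of Ryr2 are shown to set members that passed the test beside one without a call. They are written 5′ to 3′ on the gene's strand, with capitals for matches on either strand to CANNTG (the E-box), GATAA (GATA factors), TATAAA (the TATA box), GGGCGG (the GC box) or AGGTCA (nuclear receptors).
Jph2 (the more downstream of 2 listed starts) chr2:163397974-163398223, minus strand: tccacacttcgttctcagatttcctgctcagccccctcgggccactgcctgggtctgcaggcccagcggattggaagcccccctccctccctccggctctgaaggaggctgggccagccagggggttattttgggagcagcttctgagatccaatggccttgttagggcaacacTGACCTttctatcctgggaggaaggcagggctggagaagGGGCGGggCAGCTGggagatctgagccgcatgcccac
Casq2 chr3:102086165-102086414, plus strand: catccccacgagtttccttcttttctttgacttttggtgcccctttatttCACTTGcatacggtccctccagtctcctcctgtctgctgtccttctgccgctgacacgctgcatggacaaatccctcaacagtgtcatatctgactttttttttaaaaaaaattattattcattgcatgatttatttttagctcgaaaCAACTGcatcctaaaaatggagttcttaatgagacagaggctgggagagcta
Ryr2 chr13:12106946-12107195, minus strand: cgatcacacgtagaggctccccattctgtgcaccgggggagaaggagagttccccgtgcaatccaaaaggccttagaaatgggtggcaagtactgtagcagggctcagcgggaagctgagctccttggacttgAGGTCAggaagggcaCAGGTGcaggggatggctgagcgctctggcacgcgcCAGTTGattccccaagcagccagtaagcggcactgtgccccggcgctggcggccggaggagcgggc
The Jph2 window held 1 E-box, 1 GC box and 1 AGGTCA match, the Casq2 window 2 E-boxes, and the Ryr2 window 2 E-boxes and 1 AGGTCA match. E-boxes were in every member window, also in those of Pln, Slc8a1 and Hrc, and in 66.2% of all 32851 windows of this length. AGGTCA was in 14% of them and the GC box in 32.7%. GATAA, found in 22.6% of all windows, was in those of Pln, Slc8a1 and Hrc, and TATAAA, found in 12.4%, only in that of Pln. Letters that match do not show a bound site.

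The 5 calls depended on the processing to different degrees. Jph2 fell and passed in 20 of 21 other ways of processing the arrays, Casq2 in 13, Hrc in 12, Srl in 10 and Trdn in 9. Atp2a2 by its brighter probe passed in 4 of 20, and in 1 more where its probes were averaged, and Pln passed in 4 of 21, and all 7 genes had a change below 0 in all 21. With slide row as a block, only tail-suspension replicate 1 is compared with the sham hearts of row 1, so only sizes of change are given. The changes were then -0.86 for Jph2, -0.45 for Casq2, -0.31 for Srl, -0.63 for Trdn and -0.44 for Hrc. Without sham replicate 1, sham replicate 2 or tail-suspension replicate 3, only Jph2 passed, and without sham replicate 3 or tail-suspension replicate 1, 3 members did. Over all probes, 20.4% passed, and leaving out an array lowered the number from 5706 to between 1757 and 5586.

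**Figure D5:**
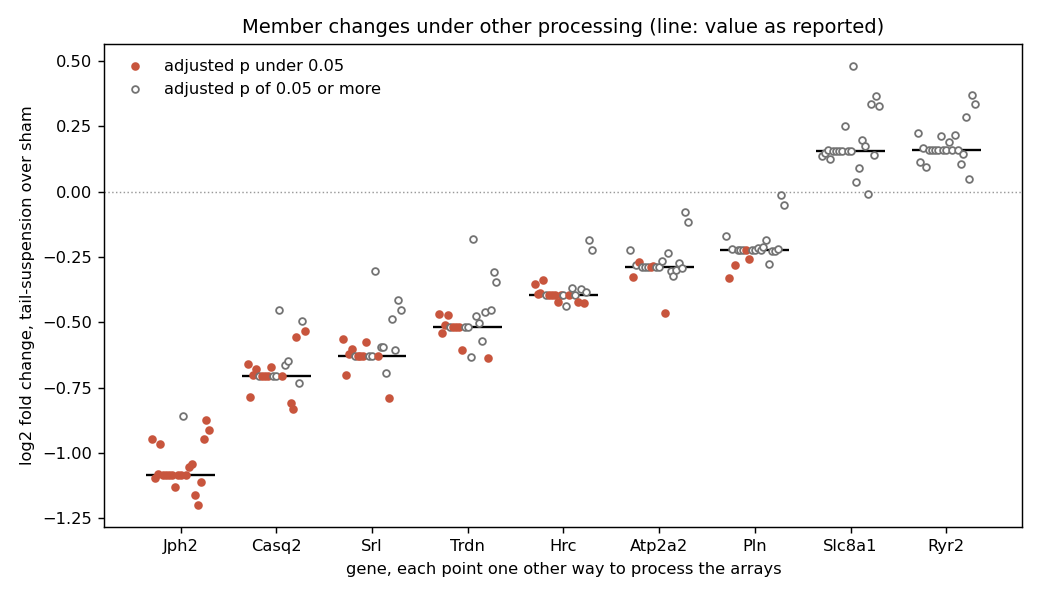
Log2 fold change of tail-suspension over sham (y axis) for the 9 tested members (x axis), with 1 point for each of 21 other ways of processing or of leaving out an array; filled points passed the adjusted threshold of 0.05 and lines give the value as reported. Every Jph2 point lies between -1.20 and -0.86, whereas the points of Slc8a1 and Ryr2 are open throughout.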

How the data were processed

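Heart RNA of 3 sham and 3 tail-suspended mice was hybridised to 1-colour Agilent arrays. Per the labels, spots were extracted with Agilent Feature Extraction 10.7.1.1, and the authors deposited each spot's processed intensity, mean intensity and background intensity with other spot flags. They also deposited a table of log2 values, whose sorted columns differed by at most 0.000857, so it was quantile normalized. The processed intensity was converted to log2 minus the 75th percentile of each array over non-control spots. Outlier spots (146 to 212 per array) were left out, spots of a probe averaged, and 28032 probes tested with limma 3.58.1 in R 4.3.3 (Benjamini-Hochberg, threshold 0.05). Groups came from the sample titles. The members and lists were chosen with earlier results of these data known. Named were all members, list genes past the threshold (the 3 largest changes with values) and, where none passed, the largest change. A list gene that passed is not reported here by name, though the list counts include it. Likeness was Pearson r over 6 arrays. Alternatives are given in the closing section. A simulation of the comparison held 28032 probes, of which 200 were changed. In it, 68% of changes of size 1 and 90% of changes of size 2 (log2) were called, with 6 unchanged probes called. The data held more calls, 5706 probes, and all members but Jph2 changed by less than 1. These shares therefore do not carry over to the members. The number of arrays limits the precision. Same-numbered arrays did not deviate together (correlations -0.02, -0.02 and 0.05).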

Additional observations from a re-analysis of the deposited data

How the results depend on the processing

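No member rose under any alternative at the adjusted threshold. Numbers of calls with slide row as a block are not given, as that leaves 1 tail-suspended heart to compare. The number of members that fell, 5 as reported, was 1 without a filter on dim probes and 1 with the replicate block. It was 2 with the methods' t-test after adjustment (7 at their unadjusted threshold of 0.05), and 1 to 4 when an array was left out. With quantile normalization, the authors' log2 values, an intensity trend or array weights it was 7. The calls over all probes moved as well. Beside 5706 of 28032 as reported, 1831 of 55681 were called without the filter, 2780 of 28032 with the t-test and 3117 with the replicate block. They numbered 5799 with quantile normalization, 5801 with the authors' values, and 6902 and 8814 of 28003 with the trend and with array weights. After seeing the data, 2 further scalings were added: without any scaling between arrays 1 member fell, and relative to the ventricular markers 2 did. These moved the median of all probes to 0.21 and 0.17, beside -0.00485 as reported, and called 7853 and 7981 of 28032 probes. Partner genes that rose, 3 as reported, numbered 0 without the filter, with the t-test and with the replicate block. They numbered 5 with the trend, and 6 with array weights and with the mean of a gene's probes. They numbered 11 with no scaling, 11 relative to the ventricular markers, and 0 to 6 with an array left out. Partner genes that fell, 11 as reported, numbered 3 without the filter, 6 with the replicate block, 5 with no scaling and 4 to 10 with an array left out. Some values that did not pass changed sign: Slc8a1 ran from -0.0085 without tail-suspension replicate 1 to 0.333 without tail-suspension replicate 2. Its probe A_55_P2292435 was 0.0736 with the row block, ran from -0.158 without sham replicate 1 to 0.0131 without sham replicate 2 (0.0023 without tail-suspension replicate 2), and was 0.13 with no scaling and 0.0935 relative to the ventricular markers. Trdn probe A_55_P1966778 was -0.12 with normexp background correction, and A_55_P2401646 was 0.0276 with no scaling. Causes were not tested, except that the row block leaves 1 tail-suspended heart to compare, and leaving out an array leaves fewer samples. The replicate numbers share only a number. The slide was not used as a block, as all arrays lay on 1.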
